A study of Mus musculus with 6 samples.

Results

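Alarmins are cytokines that barrier tissues release on damage, and they act on group 2 innate lymphoid cells (ILC2s), which lack antigen receptors and secrete type 2 cytokines. Described here are the 10 mouse genes for the receptors of IL-33, IL-25, TSLP and IL-18, with those of IL-1 that share their chains, out of 27179 genes in the deposited table. They were chosen by symbol, namely Il1rl1, Il1rap, Il17rb, Il17ra, Crlf2, Il18r1, Il18rap, Il1r1, Il1r2 and Myd88. ILC2s had been sorted through a Chat positive or a Chat negative gate, with 3 libraries from each. Chat is the enzyme that makes acetylcholine, and the comparison asks which transcripts separate cells in these gates. The sources used here do not state the strain, age or tissue of the mice, any treatment, how Chat was seen in the sorter, or whether replicates were separate animals. Fewer cells with a transcript and less of it per cell cannot be told apart in such bulk libraries.

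IL-33 binds ST2, the product of Il1rl1, and IL-18 binds the product of Il18r1, and each complex then takes up an accessory chain, from Il1rap or Il18rap. These chains carry a cytoplasmic TIR domain that recruits the adaptor MyD88. IL-1 signals through Il1r1 with Il1rap, whereas the Il1r2 product binds IL-1 but has no TIR domain and acts as a decoy. IL-25 signals through Il17rb paired with Il17ra, and TSLP through Crlf2 paired with the IL-7 receptor chain Il7r. In ILC2s, IL-33, IL-25 and TSLP are known to induce growth and release of IL-5 and IL-13.

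Total counts ran from 37154269 to 50361306 in Chat positive and from 42503612 to 44061509 in Chat negative libraries. Chat stood at 188, 169 and 204 CPM, counts scaled to a common library size, in Chat positive 1, 2 and 3, against 16.5, 26.5 and 17.5 CPM in Chat negative 1, 2 and 3, far higher in every Chat positive library. Its log2 change was 3.21 (edgeR adjusted p = 0.0174, and 0.0961 with the replicate number as a block). All 10 listed ILC2 markers had counts, led by Il5 at 7591 to 13760 CPM in Chat positive and 5730 to 8470 CPM in Chat negative libraries. Of the markers listed for other cells, some were near 0 and others were not. The mast cell and basophil genes Mcpt4, Cpa3, Ms4a2 and Tpsb2 had no counts in any library, although Kit, the most abundant of the 8 genes listed for those cells, stood at 157 to 276 CPM in Chat positive and 153 to 247 CPM in Chat negative libraries. Mcpt8, on the same list, stood at 24.9 to 147 CPM in Chat positive and 30.8 to 203 CPM in Chat negative libraries. The neutrophil genes S100a8 and S100a9, the T cell genes Cd4, Cd8a and Cd5 and the B cell genes Cd79a and Ms4a1 stayed under 1 CPM everywhere. So did the dendritic cell genes Itgax, Flt3 and Zbtb46 and the eosinophil genes Siglecf, Prg2 and Epx. The same held for Ncr1, Klrb1c, Eomes and Tbx21, listed for ILC1s and NK cells. It also held for Lyz2, Csf1r, Cd14 and Fcgr1, listed for macrophages and monocytes. By the mean over 6 libraries, the most abundant dendritic cell marker was Xcr1 (132 to 150 CPM in Chat positive and 123 to 140 in Chat negative libraries). In the same order of gates, the most abundant B cell marker was Cd79b (68.5 to 85.4 and 66.1 to 74.1). For epithelium and stroma it was Pecam1 (56.3 to 95.3 and 46.5 to 76.6), and for T cells Cd3g (14.6 to 39.1 and 19.1 to 39.8). For macrophages it was Cd68 (6.86 to 21.3 and 6.99 to 20.5), and for ILC1s and NK cells Nkg7 (8.25 to 16.7 and 12.6 to 23.1). For eosinophils it was Ccr3 (7.53 to 9.89 and 7.99 to 10.9). For neutrophils it was Ly6g (1.24 to 12.6 and 0.853 to 12.6), and for ILC3s Il22 (1.67 to 4.37 and 0.184 to 4.58). Epcam, also listed for epithelium, stood at 55.2, 31.5 and 52.7 CPM in Chat positive 1, 2 and 3, against 82.4, 34.9 and 87.0 CPM in Chat negative 1, 2 and 3, and so above Pecam1 in Chat negative 1 and 3.

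All values below, if not said otherwise, are CPM scaled with TMM factors. The gates were compared over 12967 genes by edgeR's quasi-likelihood method, with Benjamini-Hochberg adjustment and a threshold of 5%. Of these genes, 0.00771% were called, which is Chat alone, and 0 of the 10 receptor genes passed. At an unadjusted p under 0.05 there was 1 of 10 receptor genes, against 2.43% of all genes, in edgeR, and DESeq2 and limma-voom also called 0. The gates share the replicate numbers 1 to 3, and libraries of the same number deviated together across genes, most clearly those of number 2 (correlation 0.81). Chat negative 1 correlated more with Chat positive 3 (0.47) than with Chat positive 1 (0.42), and no label states a pairing. With the number as a block, edgeR called 0.339% of genes (0.216% higher and 0.123% lower) and 1 receptor gene, Il1rl1. Of the other fits, 1 receptor gene was called where edgeR with the block left out number 3 (5.43% of genes called), and 2 in blocked DESeq2 (3.67%). None was called by unblocked DESeq2 or blocked edgeR corrected for length and GC (0.0308% each), blocked edgeR without number 2 (0.023%), or unblocked edgeR without number 2 of both gates (0.0154%), without Chat positive 2 (0.00758%), without Chat negative 2 (0.00757%), without a filter (0.00536%) or with one at 5 CPM (0.0105%). Il1rl1, Il1r2 and Myd88 were higher in the Chat positive library of all 3 numbers, as were 22.3% of all genes, and Il17rb, Il18rap and Il1r1 were lower in all 3, as were 17.3%.

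A group of 5 of the 10 genes lies in a row on mouse chromosome 1 within 467 kb of build GRCm38, in the order Il1r2, Il1r1, Il1rl1, Il18r1 and Il18rap. A further receptor gene, Il1rl2 for IL-36, lies between Il1r1 and Il1rl1. Il1rl1 (chr1:40404864-40465418) ends 133 bases before Il18r1 (chr1:40465552-40500854) begins on the same strand. Per kb of the longest annotated transcript of each gene, this row holds both the most and the least abundant gene of the 10. Il1r2 stood at 592 to 1063 CPM per kb over the 6 libraries, and its neighbour Il1r1 at 0.0186 to 0.227. Il1rl1 stood at 11.1 to 30.02, Il18r1 at 1.30 to 2.50 and Il18rap at 7.68 to 11.05 CPM per kb. Il1rl2 stood at 0.0445 to 0.230 CPM per kb, a range that overlaps that of Il1r1.

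**Figure D1:**
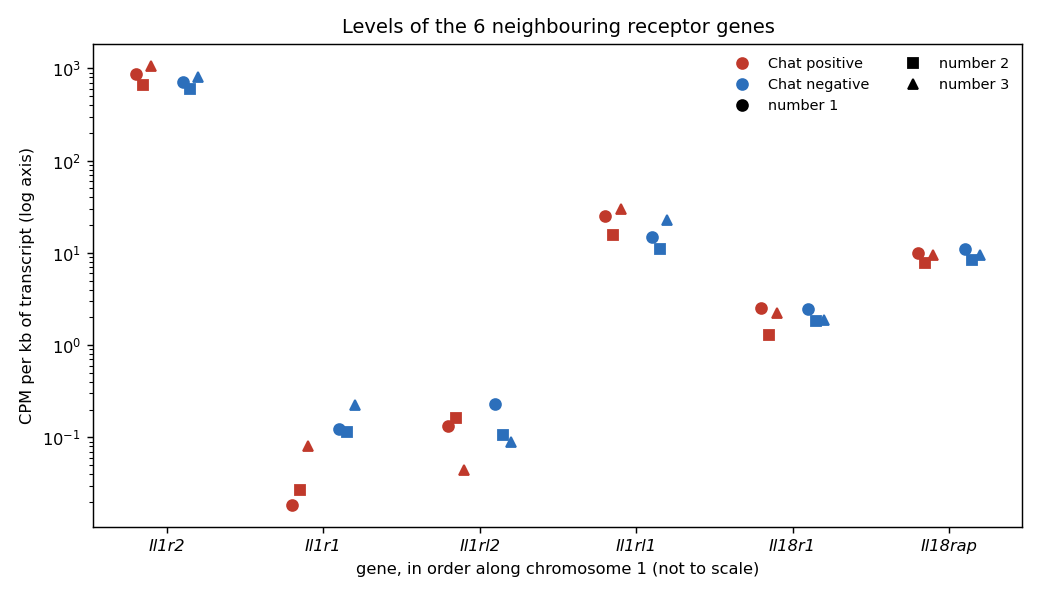
CPM per kb of transcript, on a log axis, for the 6 receptor genes that neighbour each other on chromosome 1, in their order along it. Each point is a library, in colours by gate and shapes by replicate number. Il1r2 sits at 592 to 1063 and Il1r1, next to it, at 0.0186 to 0.227.

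The upstream sequences of Il1rl1 are shown since it defines the response to IL-33, and because it was picked for its GATA words. That of Il1r2, the most abundant gene of the row, is shown as well. In mice, Il1rl1 is known to be transcribed from a distal and a proximal promoter, and the counts per gene cannot tell these apart, nor the membrane form of ST2 from its soluble form. RefSeq (GRCm38.p6) gave windows for start sites 10.1 kb apart, called distal and proximal here. The RefSeq genes Il1rl1 and Il1r2 begin further upstream, at chr1:40404864 and chr1:40084692, and no window shown here lies before those starts. Each line below holds the 250 bases before a RefSeq start site on the plus strand, at chr1:40429320-40429569, chr1:40439379-40439628 and chr1:40085843-40086092. Capitals mark the word AGATAA, the word AGATAG, the word TGATAA or the word TGATAG on either strand, which GATA factors such as GATA3 can bind.
Il1rl1, distal: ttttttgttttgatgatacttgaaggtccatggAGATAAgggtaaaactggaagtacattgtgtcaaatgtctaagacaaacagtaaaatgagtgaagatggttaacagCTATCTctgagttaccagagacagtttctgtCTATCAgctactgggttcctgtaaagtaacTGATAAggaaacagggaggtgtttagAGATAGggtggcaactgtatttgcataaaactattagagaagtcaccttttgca
Il1rl1, proximal: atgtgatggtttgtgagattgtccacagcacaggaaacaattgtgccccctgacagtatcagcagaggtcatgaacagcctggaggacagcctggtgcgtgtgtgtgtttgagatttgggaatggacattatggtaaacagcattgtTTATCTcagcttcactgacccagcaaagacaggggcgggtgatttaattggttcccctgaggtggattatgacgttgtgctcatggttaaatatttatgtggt
Il1r2: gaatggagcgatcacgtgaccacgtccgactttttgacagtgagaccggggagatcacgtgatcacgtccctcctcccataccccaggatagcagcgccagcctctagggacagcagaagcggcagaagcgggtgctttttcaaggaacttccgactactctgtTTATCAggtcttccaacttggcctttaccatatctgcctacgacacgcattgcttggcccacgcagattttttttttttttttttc

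The distal Il1rl1 window held 5 such words, and 0.0427% of 32817 RefSeq windows of the same length held at least 5. That cut-off is the count of this window itself, which was picked for its words, so the share is no test. The window had a GC content of 37.6%, and the windows compared were not matched for base composition. The proximal window and the Il1r2 window held 1 each, and 26.6% of all windows held at least 1. Windows were found for 9 of the 10 receptor genes, 13 in all, and 4 windows of 3 genes held a word. Il1rl1, Il1r2 and Il18rap were those genes. All lie in the row on chromosome 1, from which most of the 13 windows came. The AP-1 word TGANTCA, found in 6.75% of all windows, was in 1 of the 13, that of Il17rb. Gata3, which encodes the factor that specifies ILC2s, stood at 2425, 1603 and 2355 CPM in Chat positive 1, 2 and 3, against 2467, 1829 and 2544 CPM in Chat negative 1, 2 and 3. A match is a description of the letters and shows no binding.

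Il1rl1 was higher in Chat positive cells within every replicate number. The number took a larger share of its variation than the gate, though the number has more levels. Il1rl1 stood at 133, 82.0 and 159 CPM in Chat positive 1, 2 and 3, against 79.1, 58.6 and 120 CPM in Chat negative 1, 2 and 3. The gates overlapped, since Chat positive 2 lay below Chat negative 3. Number 2 was the lowest library of either gate and number 3 the highest. The means were 125 ± 39.2 and 85.9 ± 31.2 CPM (SD, n = 3 each), a 1.45-fold difference with a log2 change of 0.54 (95% interval -0.22 to 1.30, edgeR adjusted p = 1.00). Within numbers 1, 2 and 3 the log2 difference was 0.75, 0.48 and 0.41. The fit with the replicate number as a block gave a log2 change of 0.55 (95% interval 0.38 to 0.72) and called Il1rl1 higher (edgeR adjusted p = 0.0420). The same fit did not call Chat (edgeR adjusted p = 0.0961), and no label states the pairing that it assumes. Blocked DESeq2 also called Il1rl1 (adjusted p = 2.53e-06). The call was lost in blocked limma-voom (adjusted p = 0.0856), in blocked edgeR without robust dispersions (0.104) or corrected for length and GC (0.0943), and without the libraries of number 1 (0.484) or number 2 (0.133). Without the block, leaving out Chat positive 3 gave a log2 change of 0.31, Chat negative 2 0.33 and Chat negative 3 0.85.

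Mast cells and basophils are known to express Il1rl1. Of 8 listed markers of these cells, 4 had no counts, and the list summed to 301 to 318 CPM in Chat positive and 278 to 356 CPM in Chat negative libraries, nearly all of it Kit and Mcpt8. Mcpt8, a basophil protease, was lowest in number 2 of either gate, as Il1rl1 was, and lower in the Chat positive library of each number, where Il1rl1 was higher. Kit went the other way on both points. It was highest in number 2 of either gate, at 276 CPM in Chat positive 2 and 247 CPM in Chat negative 2, and higher in the Chat positive library of each number. The part of Mcpt8 or Kit in the Il1rl1 values was not tested.

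Il1rap, the accessory chain for IL-33 and IL-1, did not follow Il1rl1. The gene lies at chr16:26581509-26730128 and overlaps the antisense Gm20319. It stood at 12.7, 20.5 and 10.5 CPM in Chat positive 1, 2 and 3, against 11.5, 18.8 and 16.8 CPM in Chat negative 1, 2 and 3. Number 2 was the highest library of either gate, where Il1rl1 was lowest. The means were 14.6 ± 5.29 and 15.7 ± 3.78 CPM (SD, n = 3 each), with a log2 change of -0.10 (95% interval -0.82 to 0.61, edgeR adjusted p = 1.00). Per kb, Il1rl1 was 8.91, 3.40 and 12.9 times as abundant as Il1rap in Chat positive 1, 2 and 3, and 5.88, 2.66 and 6.10 times in Chat negative 1, 2 and 3. This ratio was above 1 in all 6 libraries and lowest in number 2 of either gate. It was higher in the Chat positive library of each number, although the gates overlapped.

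Il1r2, the IL-1 decoy, was the most abundant of the 10 genes and ranked 40 of 12091 tested genes with a known length. It stood at 1218, 945 and 1508 CPM in Chat positive 1, 2 and 3, against 1022, 840 and 1149 CPM in Chat negative 1, 2 and 3. As for Il1rl1, the Chat positive library was higher in every number and number 2 was lowest in either gate, with the gates overlapping. The means were 1224 ± 282 and 1003 ± 155 CPM (SD, n = 3 each), with a log2 change of 0.29 (95% interval -0.18 to 0.75, edgeR adjusted p = 1.00). It was 0.09 without Chat positive 3, 0.17 without Chat negative 2 and 0.44 without Chat positive 2. With the block the log2 change was 0.27 (95% interval 0.15 to 0.40), short of the threshold in edgeR (adjusted p = 0.0961) and past it in DESeq2 (0.00438), which called 3.67% of genes with the block. An antisense transcript, Gm16894, overlaps Il1r2 in GENCODE, and without a stated strand setting its reads cannot be told apart from those of Il1r2. Neutrophils are known to express Il1r2. Of 5 listed neutrophil markers 4 were under 1 CPM everywhere, and the list summed to 1.61 to 13.2 CPM in Chat positive and 1.25 to 14.0 CPM in Chat negative libraries.

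Il1r1, the signalling receptor for IL-1, had few reads in both gates and fewer in the Chat positive one. It had 4, 8 and 19 counts in Chat positive 1, 2 and 3, against 30, 29 and 57 counts in Chat negative 1, 2 and 3. The gates did not overlap, in a direction that 3.61% of all genes tested shared. The means were 0.245 ± 0.198 and 0.899 ± 0.365 CPM (SD, n = 3 each), with a log2 change of -1.87 (95% interval -3.44 to -0.30). Leaving out 1 library at a time gave -1.49 (without Chat negative 3) to -2.74 (without Chat positive 3). Its unadjusted p of 0.0259 was the only one under 0.05 among the 10 genes, and it did not pass after adjustment (edgeR adjusted p = 1.00, and 0.133 with the block). Il1r1 passed the filter on low counts through all 3 Chat negative libraries and 1 Chat positive library, mainly the group where it is high. The 5 listed markers of ILC3s, which are known to express Il1r1, summed to 4.56 to 7.40 CPM in Chat positive and 3.67 to 6.16 CPM in Chat negative libraries, with Il23r and Il17a under 1 CPM everywhere. Il22 was the most abundant of them on the mean over libraries, at 1.67 to 4.37 CPM in Chat positive and 0.184 to 4.58 CPM in Chat negative libraries. Their part in the Il1r1 difference was not tested.

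**Figure D2:**
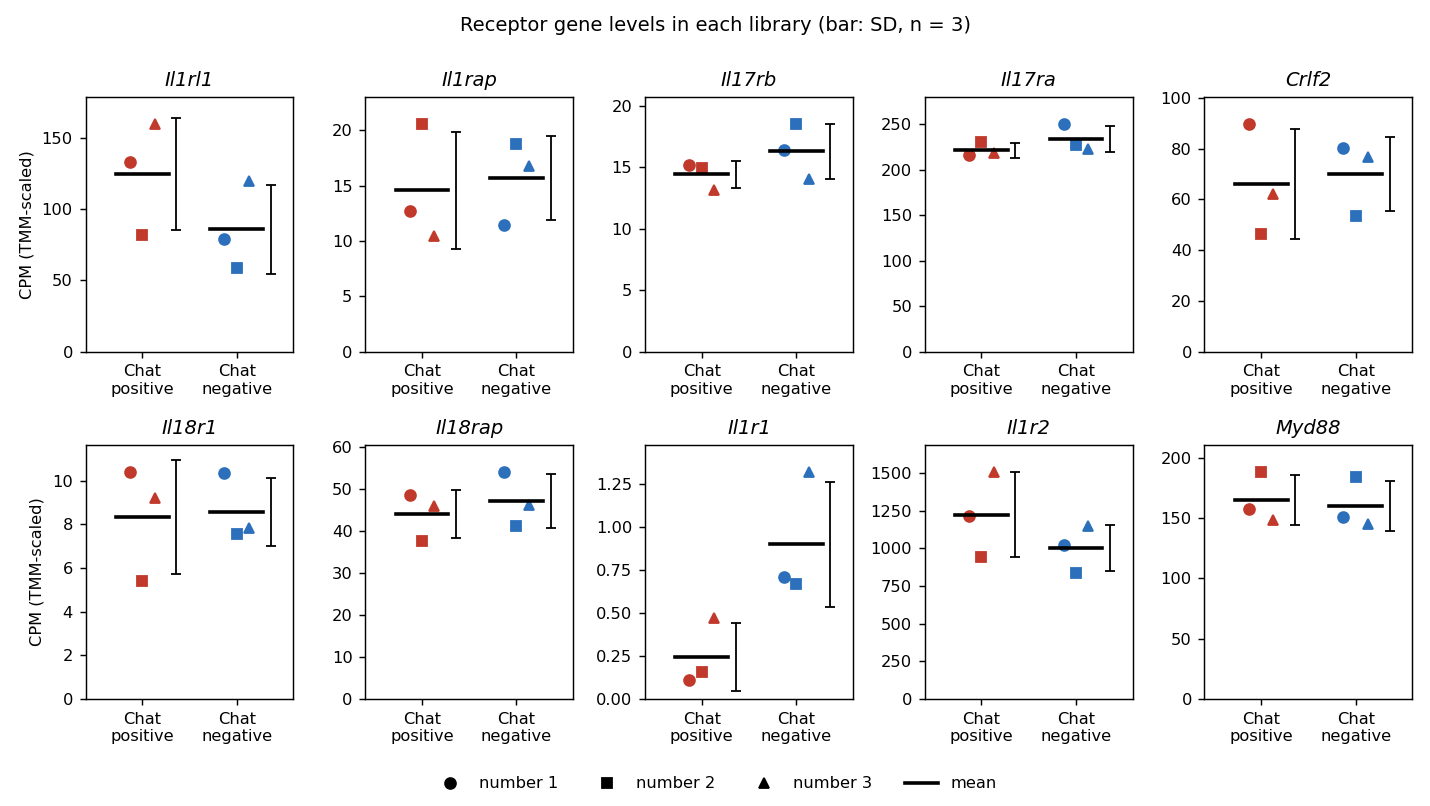
TMM-scaled CPM of the 10 receptor genes in each library, on axes that start at 0, with the mean as a line and the SD over 3 libraries as a bar. Shapes give the replicate number. Il1rl1 and Il1r2 are higher in the Chat positive library of each number with overlapping gates, and Il1r1 is the gene whose gates do not overlap. Il1r1 had at most 57 counts in a library.

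For both IL-18 receptor chains the interval of the difference spanned 0. Il18r1, the ligand-binding chain, stood at 10.4, 5.40 and 9.19 CPM in Chat positive 1, 2 and 3, against 10.4, 7.54 and 7.82 CPM in Chat negative 1, 2 and 3. Its log2 change was -0.04 (95% interval -0.72 to 0.63). Il18rap, the accessory chain, was the more abundant, at 48.5, 37.5 and 45.95 CPM in Chat positive 1, 2 and 3, against 54.0, 41.1 and 46.1 CPM in Chat negative 1, 2 and 3. Its log2 change was -0.10 (95% interval -0.46 to 0.27, edgeR adjusted p = 1.00 for both chains). Number 2 was the lowest library for both chains in both gates. Per kb, Il18rap was 3.97 to 5.91 times as abundant as Il18r1 in Chat positive and 4.43 to 5.01 times in Chat negative libraries.

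Among the IL-25 receptor chains, the shared chain exceeded the specific one. Il17rb (chr14:29996168-30008896), which binds IL-25, stood at 15.2, 14.9 and 13.1 CPM in Chat positive 1, 2 and 3, against 16.4, 18.5 and 14.01 CPM in Chat negative 1, 2 and 3. It was lower in the Chat positive library of each number, with overlapping gates and a log2 change of -0.18 (95% interval -0.56 to 0.21), which was -0.08 without Chat negative 2 and -0.27 without Chat negative 3. Il17ra (chr6:120463181-120483731), which also serves IL-17A, stood at 216, 231 and 218 CPM in Chat positive 1, 2 and 3, against 249.7, 227 and 223 CPM in Chat negative 1, 2 and 3. It was the steadiest of the 10 genes over the 6 libraries, with a log2 change of -0.08 (95% interval -0.30 to 0.15, edgeR adjusted p = 1.00 for both chains). Per kb, Il17ra was 4.72 to 5.51 times as abundant as Il17rb in Chat positive and 4.08 to 5.29 times in Chat negative libraries. Il17rb overlaps the oppositely oriented gene Actr8 in GENCODE, and reads in the overlap cannot be assigned without the strand setting.

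For TSLP, Crlf2 (chr5:109554709-109559128) stood at 89.5, 46.4 and 62.3 CPM in Chat positive 1, 2 and 3, against 80.1, 53.4 and 76.6 CPM in Chat negative 1, 2 and 3. Number 1 was the highest and number 2 the lowest library in either gate. The log2 change was -0.08 (95% interval -0.71 to 0.54, edgeR adjusted p = 1.00). Its partner Il7r stood at 1153, 732 and 1164 CPM in Chat positive 1, 2 and 3, against 1310, 797 and 1497 CPM in Chat negative 1, 2 and 3, lower in the Chat positive library of each number. The Il7r log2 change was -0.24 (95% interval -0.89 to 0.41, edgeR adjusted p = 1.00, and 0.122 with the block). Per kb, Il7r was 5.11 to 7.42 times as abundant as Crlf2 in Chat positive and 5.92 to 7.76 times in Chat negative libraries.

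Myd88 (chr9:119335934-119340018), the adaptor that the IL-33, IL-18 and IL-1 receptors share, stood at 158, 188 and 149 CPM in Chat positive 1, 2 and 3, against 151, 184 and 145 CPM in Chat negative 1, 2 and 3. The libraries of each number lay close together and number 2 was the highest in either gate. Its log2 change was 0.04 (95% interval -0.28 to 0.37, edgeR adjusted p = 1.00). GENCODE places the oppositely oriented Acaa1a and the like-oriented Slc22a14 across part of Myd88, with the same limit on assigning reads.

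**Figure D3:**
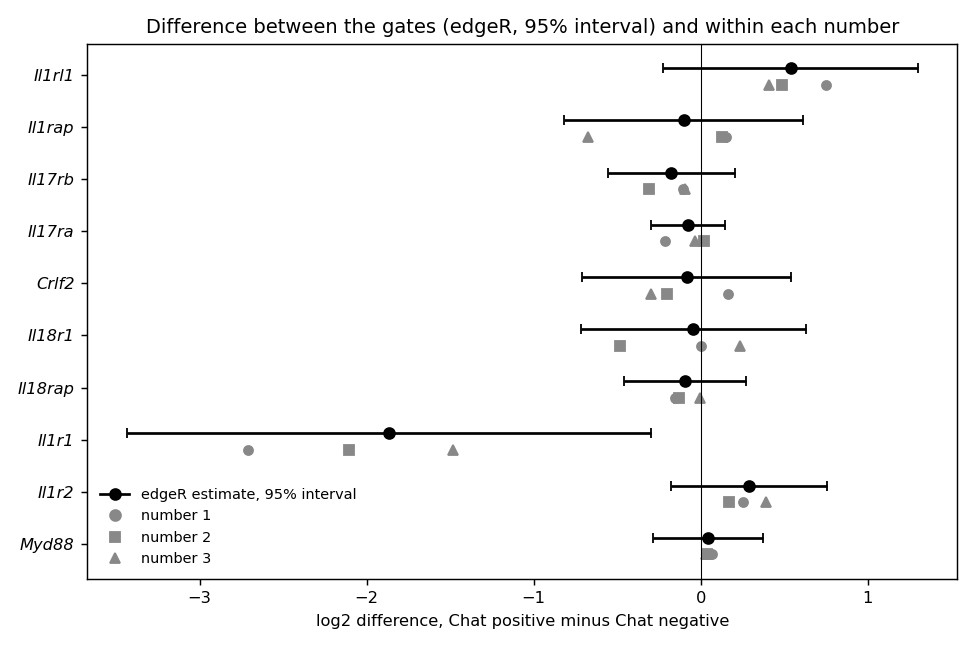
Log2 difference between Chat positive and Chat negative for the 10 receptor genes. Black points are edgeR estimates with 95% intervals, and grey shapes are the differences within replicate numbers 1, 2 and 3. The Il1r1 interval, -3.44 to -0.30, is the one that leaves out 0, and the 3 grey points of Il1rl1 lie between 0.41 and 0.75.

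In order of level per kb, averaged over 6 libraries, the genes ran Il1r2 (785 CPM per kb), Myd88 (66.1), Crlf2 (48.4), Il17ra (29.3), Il1rl1 (19.9), Il18rap (9.31), Il17rb (5.96), Il1rap (3.35), Il18r1 (2.03) and Il1r1 (0.0983). The ranges over libraries overlapped between Myd88 and Crlf2, between Il17ra and Il1rl1, and between Il1rap and Il18r1. The other neighbours in this order did not overlap. Over the 10 genes the median log2 change was -0.08 with 3 above 0, beside a median of 0.00 over all genes tested, of which 6594 of 12967 lay above 0.

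The replicate number carried more of the variation than the gate for most of these genes. Of the sum of squares of log2(CPM + 1) over the 6 libraries, the gate took 30.4% and the number 67.5% for Il1rl1, 25.0% and 72.1% for Il1r2, and 2.26% and 97.5% for Myd88. Only for Il1r1, at 69.7% for the gate and 29.8% for the number, and for Il17ra, at 28.6% and 19.8%, did the gate take the larger part of these 2. The medians over all genes tested were 9.63% for the gate and 67.4% for the number. The number has more levels than the gate, so its share tends to be the larger even where neither has an effect.

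**Figure D4:**
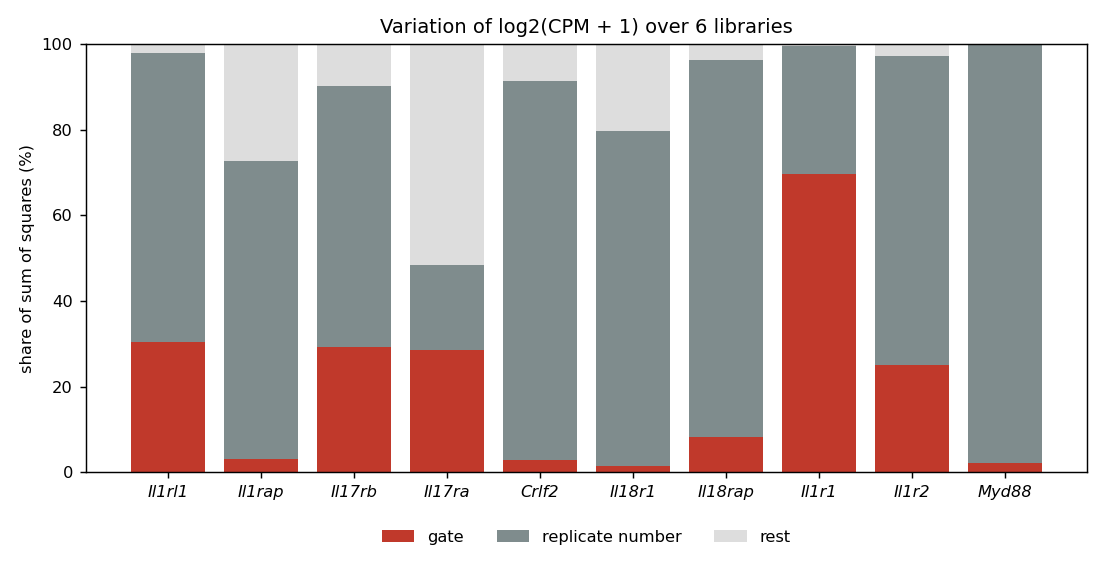
Share of the sum of squares of log2(CPM + 1) over 6 libraries that went with the gate, the replicate number or neither, in percent, for each receptor gene. Il1r1 has the largest part for the gate, 69.7%, and Myd88 the largest for the number, 97.5%.

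Number 2 was the library that stood apart in both gates. It was the lowest of its gate in both gates for 5 of the 10 receptor genes, Il1rl1, Il1r2, Crlf2, Il18r1 and Il18rap, against 29.6% of all genes. It was the highest in both gates for 2, Il1rap and Myd88, against 31.2% of all genes. On log2(CPM + 1), Il1rl1 in number 2 lay at -0.82 from the mean of numbers 1 and 3 in Chat positive and at -0.72 in Chat negative libraries, while Il1rap lay at 0.78 and 0.41 in the same order. Without the number 2 libraries of both gates, 0 of the 10 receptor genes passed in edgeR, 2 had an unadjusted p under 0.05, as had 1154 of all 13025 genes in that fit, and Il1rl1 had a log2 change of 0.55 (edgeR adjusted p = 0.549). The granule protease gene Mcpt8 moved with the numbers, at 24.9 CPM in Chat positive 2 and 30.8 CPM in Chat negative 2, against 124 and 147 CPM in Chat positive 1 and 3 and 134 and 203 CPM in Chat negative 1 and 3. Ly6g, listed as a neutrophil gene, was likewise at 1.24 CPM in Chat positive 2 and 0.853 CPM in Chat negative 2, against 5.70 to 12.6 CPM elsewhere. Their part in the number 2 values of the receptors was not tested.

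Of the ligands, Il25 and Tslp had 0 counts in all 6 libraries, which allows up to 0.0583 to 0.0811 CPM for counting error only, and Il18, Il1a, Il1b and Il1rn had at most 13 counts in a library. Il33, the ligand of the Il1rl1 product, was detected at 7.86, 2.49 and 12.9 CPM in Chat positive 1, 2 and 3, against 5.91, 1.20 and 13.1 CPM in Chat negative 1, 2 and 3. Its level followed the replicate number, with number 2 lowest and number 3 highest in either gate, and its log2 change of 0.20 had a 95% interval of -1.83 to 2.22. Il18bp, the secreted IL-18 inhibitor, averaged 1.05 ± 0.518 and 1.31 ± 0.215 CPM in Chat positive and Chat negative cells (SD, n = 3 each).

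Among other receptors of these families, Sigirr, which restrains IL-1 family signalling, stood at 68.4, 59.8 and 75.7 CPM in Chat positive 1, 2 and 3, against 69.9, 60.03 and 80.9 CPM in Chat negative 1, 2 and 3. Il17rd averaged 1.53 ± 0.549 and 1.96 ± 0.504 CPM and Il1rl2 0.443 ± 0.241 and 0.553 ± 0.300 CPM in Chat positive and Chat negative cells (SD, n = 3 each). Il1rapl1 and Il1rapl2 had no counts, and Il17rc, the partner of Il17ra for IL-17A, had at most 1 count in a library.

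Downstream of the receptors, the smallest p-values were those of 3 genes in the IL-1 family relay that starts with MyD88. Of 42 listed pathway genes 31 were tested, 0 passed in edgeR and in unblocked DESeq2 and limma-voom, and 3 had an unadjusted p under 0.05 in edgeR, against 2.43% of all genes. With the block 1 passed, Irak3, against 0.339% of all genes. Irak3, which encodes the kinase-inactive inhibitor IRAK-M, stood at 82.8, 54.3 and 70.6 CPM in Chat positive 1, 2 and 3, against 48.9, 38.0 and 53.1 CPM in Chat negative 1, 2 and 3. The gates did not overlap, as for 4.53% of all genes in the higher direction. Its log2 change was 0.57 (95% interval 0.11 to 1.03, edgeR adjusted p = 1.00, and 0.0427 with the block). Blocked DESeq2 called 5 pathway genes, 1 higher and 4 lower, against 3.67% of all genes, and blocked edgeR without number 3 called 3, 1 higher and 2 lower, against 5.43%. Blocked limma-voom and blocked edgeR without robust dispersions, with the length and GC correction, without number 1 or without number 2 called 0.

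Irak4, the kinase that MyD88 recruits first, stood at 37.4, 44.1 and 37.2 CPM in Chat positive 1, 2 and 3, against 50.7, 49.96 and 51.2 CPM in Chat negative 1, 2 and 3. Traf6, the ubiquitin ligase that acts after the IRAK kinases, stood at 82.4, 98.6 and 85.9 CPM in Chat positive 1, 2 and 3, against 102, 112 and 112 CPM in Chat negative 1, 2 and 3. For neither gene did the gates overlap, with all Chat positive libraries below all Chat negative ones, as for 3.61% of all genes. The log2 changes were -0.35 (95% interval -0.63 to -0.08) for Irak4 and -0.29 (95% interval -0.55 to -0.03) for Traf6, with an edgeR adjusted p of 1.00 for both and of 0.114 and 0.101 with the block. Of the 15 tested genes of this relay, 6 had gates that did not overlap, against 8.14% of all genes. Higher in Chat positive cells was 1 of the 15 and lower were 5, against 4.53% and 3.61% of all genes. The other 3 lower ones, Tollip, Tab3 and Ikbkb, had log2 changes of -0.05, -0.20 and -0.09. The median log2 change of the relay was -0.06, and 4 of 15 were above 0.

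In IL-17 receptor signalling, Traf2, Usp25 and Traf4 had the smallest p of 6 tested genes and none passed, with log2 changes of 0.22, -0.41 and -0.17 (edgeR adjusted p = 1.00 each). In TSLP receptor signalling, the kinase Jak1 averaged 1113 ± 95.2 and 1247 ± 69.97 CPM in Chat positive and Chat negative cells (SD, n = 3 each), a log2 change of -0.16 that did not pass (edgeR adjusted p = 1.00). Jak2 and the transcription factor Stat5a had log2 changes of -0.09 and 0.14.

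**Figure D5:**
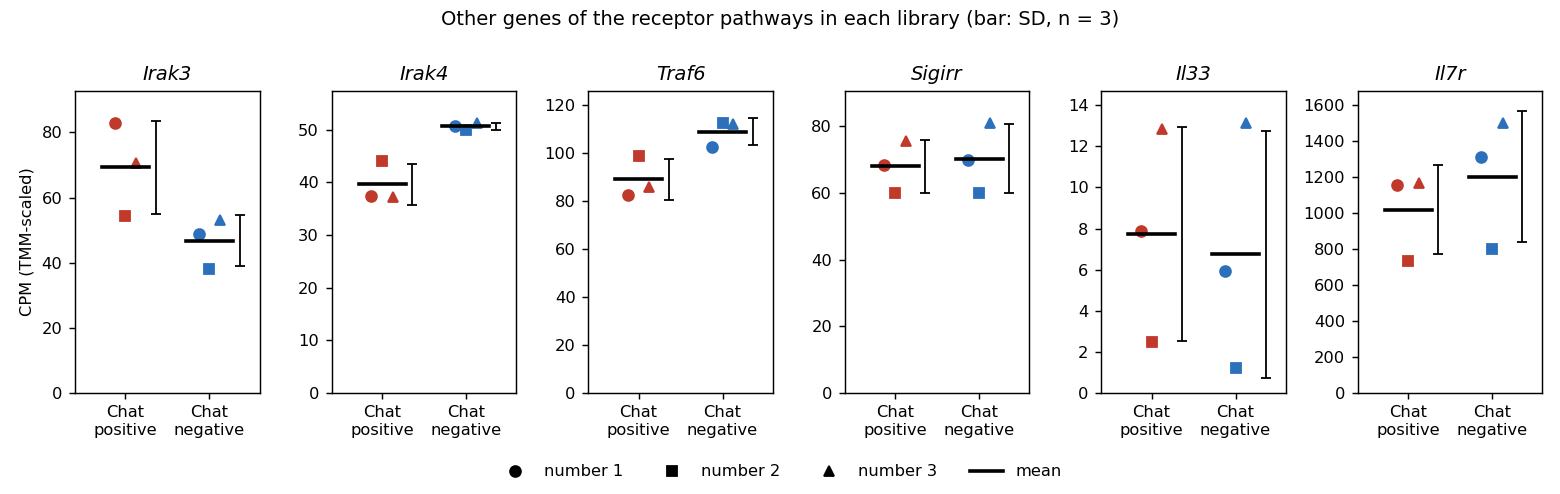
TMM-scaled CPM of 6 other genes of these receptor pathways in each library, on axes that start at 0, with the mean as a line and the SD over 3 libraries as a bar. Irak3 is higher in all 3 Chat positive libraries, Irak4 and Traf6 are lower in all 3, and the gates overlap for Sigirr, Il33 and Il7r.

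The genes whose levels over the 6 libraries were most like those of Il1rl1 were found by the root mean square difference of mean-centred log2(CPM + 1), among 8223 genes averaging at least 10 CPM. They were Zfp52 (0.0493), St3gal6 (0.0905), Gimap6 (0.121), Gpr174 (0.123) and Adamts10 (0.135), beside a median of 0.523 over the genes compared. Zfp52, the closest, stood at 77.1, 47.4 and 92.2 CPM in Chat positive 1, 2 and 3, against 48.05, 37.1 and 70.7 CPM in Chat negative 1, 2 and 3.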

How the data were processed

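The authors deposited raw read counts per gene for 27179 Entrez IDs in 6 libraries, with no normalisation, judging from whole numbers that sum to a different total in each column. Per the labels' protocols, RNA was amplified with SMARTer ultra-low-input chemistry. CASAVA 1.8.2, STAR 2.3.0 and mm10 appear in the submitters' processing notes. How reads were assigned to genes, and on which strand, is not given in the sources used here. Symbols and coordinates came from RefSeq GRCm38.p6 (25275 IDs matched), and transcript lengths and overlaps from GENCODE vM21, of the same build. Levels per kb used the longest annotated transcript of each gene, whichever forms the cells expressed. The order of levels and the ratios between chains depend on that choice.

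Genes kept by filterByExpr (12967) were scaled by TMM and tested between the gates with edgeR 4.0.16 in R 4.3.3, with robust quasi-likelihood dispersions and no term for the number. Alternatives used DESeq2 1.42.0 and limma 3.58.1, other scalings and filters, the replicate block, a loess correction (span 0.4) and left-out libraries. The replicate pairing comes from the data, not a label: deviations from the gate mean correlated across genes at 0.42, 0.81 and 0.55 within numbers 1, 2 and 3, though Chat negative 1 correlated more with Chat positive 3 (0.47). As no label names separate mice, p-values cover only the spread among these libraries, which may be technical. Members, gene lists and markers were chosen with earlier results of these data known. Named were the receptor genes, up to 3 genes with the smallest p in each pathway group, ligands with any count, Il7r, the 5 genes most like Il1rl1, the most abundant gene of each marker list over all libraries, and Chat. Il25, Tslp, Il1rapl1, Il1rapl2, Il17rc, Mcpt8, Epcam, Sigirr, Gata3, Tollip, Tab3, Ikbkb and the markers given as near 0 fall outside this rule and were named after their values were seen.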

Additional observations from a re-analysis of the deposited data

How the results depend on the processing

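Of the 10 receptor genes, Il1rl1, Il1r2, Il1r1, Il17rb and Il17ra kept their direction under every alternative run that tested them. Blocked edgeR called 44 genes, 1 of them a receptor gene and 1 a pathway gene. Blocked DESeq2 called 476, 2 and 5 (4 of the 5 lower), and blocked edgeR with the length and GC correction called 4, 0 and 0. Unblocked DESeq2 called 4, 0 and 0. Leaving out any library called 0 to 1 genes. In blocked edgeR without replicate 1, 2 or 3 of both gates the calls were 0, 3 and 709 genes, 0, 0 and 1 receptor genes, and 0, 0 and 3 pathway genes (2 of the 3 lower). Without replicate 2 and without the block, chosen after seeing the data, 2 genes passed. The Chat call was lost with the block (log2 change 3.24), with the block and the correction (3.25), with the block without replicate 1 (3.10), and without Chat positive 1 or 3 or Chat negative 1 or 3 (range over left-out libraries 3.09 to 3.46).

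Log2 changes turned when Chat positive 2 was left out for Crlf2 (0.12), Il18r1 (0.19), Il18rap (0.0043) and Myd88 (-0.0632), without Chat positive 3 for Il1rap (0.0713), without Chat negative 1 for Crlf2 (0.02), Il18r1 (0.12) and Il18rap (0.0132), without Chat negative 2 for Il1rap (0.05) and without Chat negative 3 for Myd88 (-0.02). At the other end of the range over left-out libraries stood Crlf2 at -0.37, Il18r1 at -0.24, Il18rap at -0.19, Il1rap at -0.44 and Myd88 at 0.16. Il18r1 turned to 0.11 in the blocked fit and to 0.10 in the unblocked fit without replicate 2, and Il1rap to 0.14 in the blocked fit without replicate 3. The causes were not tested. The counts of Il1r1, at most 57, limit what its difference can show, and with a filter at 5 CPM it was not tested.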
